A study of Mus musculus with 9 samples.

Results

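Vasopressin (Avp) and oxytocin (Oxt), the hormones that the hypothalamus releases through the posterior pituitary, were followed together with 7 related genes in the hypothalamus of Clic1 knockout (KO) and wild-type (WT) mice. The 9 genes were picked by name from the 14351 genes measured, and all 9 were above the authors' filter on low values, with at least 3.72 counts per M reads (CPM) in every library. Avp was chosen by its difference between KO and WT mice in these same libraries, so its contrast is a description and carries no test. The others were named for their roles: 3 regulators of Avp transcription or mRNA (Creb3l1, Caprin2 and Rasd1), 2 genes expressed with it in neurosecretory neurons (Pdyn and Nos1), the sister hormone Oxt, and the receptors Oxtr and Avpr1a. The question asked of them was whether they moved with Avp.

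Clic1 encodes chloride intracellular channel 1, and the study sequenced hypothalamic RNA to look for molecular changes behind the lower food intake of mice without it. RNA was sequenced from 9 chow-fed male mice, 1 library per mouse, comprising 5 KO mice (replicates 2, 4, 6, 8 and 10) and 4 WT littermates (replicates 1, 3, 9 and 11). The deletion was carried by the whole body, so no cell type was targeted, and the mice were on a CD-1 background by the study's methods but of strain C57b/6J by the sample labels. Neither source used here gave the age. Estimated reads on the measured genes were 5.45 to 20.8 M per KO library and 7.27 to 10.98 M per WT library. The labels name the tissue hypothalamus, while a protocol label names perigonadal fat. Pmch and Hcrt, neuropeptides of the lateral hypothalamus, stood at 199 to 334 and 34.9 to 88.2 CPM, and of 6 adipose markers only Lpl was measured here, at 3.73 to 5.70 CPM. The absence of the other adipose markers does not give their level. Markers of other tissues, such as Ttr and Hbb-bs, were absent too, and the reason was not tested.

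The grouping of replicate 10 rests on conflicting labels. The description field of replicate 10 puts it with the KO libraries, whereas its title and its treatment label call it WT. It was grouped with the KO mice, following its description. Its Clic1 level of 1.43 CPM lay within the 0.733 to 1.93 CPM of the other KO libraries and below the 3.58 to 5.52 CPM of the WT libraries. Replicate 10 also had the most reads, and its median rank correlation with the other libraries across genes was 0.974, against 0.990 to 0.993 for each of the rest. Values below are with replicate 10 as KO, and the difference of each of the 9 genes is also given without it. For lists and other genes the difference without replicate 10 is added where leaving it out changed a count or moved it by over 1.5 times. Clic1 itself differed by -1.80 (SE 0.27) on the log2 scale, with an adjusted p of 0.0153 (limma), which rose as high as 0.0893 when single libraries were left out (lost without WT replicate 1, 3 or 9), and to 0.501 with replicate 10 as WT.

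Vasopressin and oxytocin are small peptides cut from longer precursors that also hold a carrier protein, neurophysin. Magnocellular neurons of the supraoptic and paraventricular nuclei make them for release into the blood, where vasopressin retains water and oxytocin drives milk let-down and uterine contraction. Smaller paraventricular neurons make vasopressin for control of the pituitary stress axis, and neurons of the suprachiasmatic nucleus make it in a daily rhythm. Whole hypothalamus pools all of these cells, and in such bulk RNA a change in the number of cells that express a gene and a change in RNA per cell cannot be told apart.

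Avp was higher in every KO library than in every WT library. Values of single mice are listed here and below in the order of KO replicates 2, 4, 6, 8, 10, then WT replicates 1, 3, 9, 11. The CPM of Avp was 193, 197, 199.8, 189 and 255 in the KO mice, and 122, 96.0, 123 and 103 in the WT mice. The KO group lay within a narrow band except for replicate 10, which stood above the other 4. The means were 207 ± 27.4 CPM among KO mice (SD, n = 5) and 111 ± 13.6 CPM among WT mice (SD, n = 4), a 1.86-fold ratio. On the log2(CPM + 0.1) scale used for all differences below, KO exceeded WT by 0.90 (SE 0.10, 95% interval 0.67 to 1.12). Without replicate 10 the difference was 0.82 (SE 0.07) and the remaining 4 KO libraries still lay above all WT libraries. With replicate 10 as WT it was 0.58 (SE 0.22) and the groups overlapped, since the highest value then belonged to a WT library. Across all genes, 99.4% had a lower difference than Avp. Non-overlap of the KO and WT libraries, in either direction, was seen in 3.41% of all 14351 genes, and among the 9 genes it was seen in Avp alone, the gene chosen for it.

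Avp and Nos1 were the most deeply read of the 9 genes. The level of Avp corresponded to an estimated 746 to 5162 reads per library, for which counting error alone is 3.66% or less, while the spread between mice was 13.3% of the mean in KO and 12.3% in WT libraries. Avp (ENSMUSG00000037727) occupies chr2:130580620-130582554 on the minus strand of the GRCm38 assembly and has 3 exons.

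**Figure D1:**
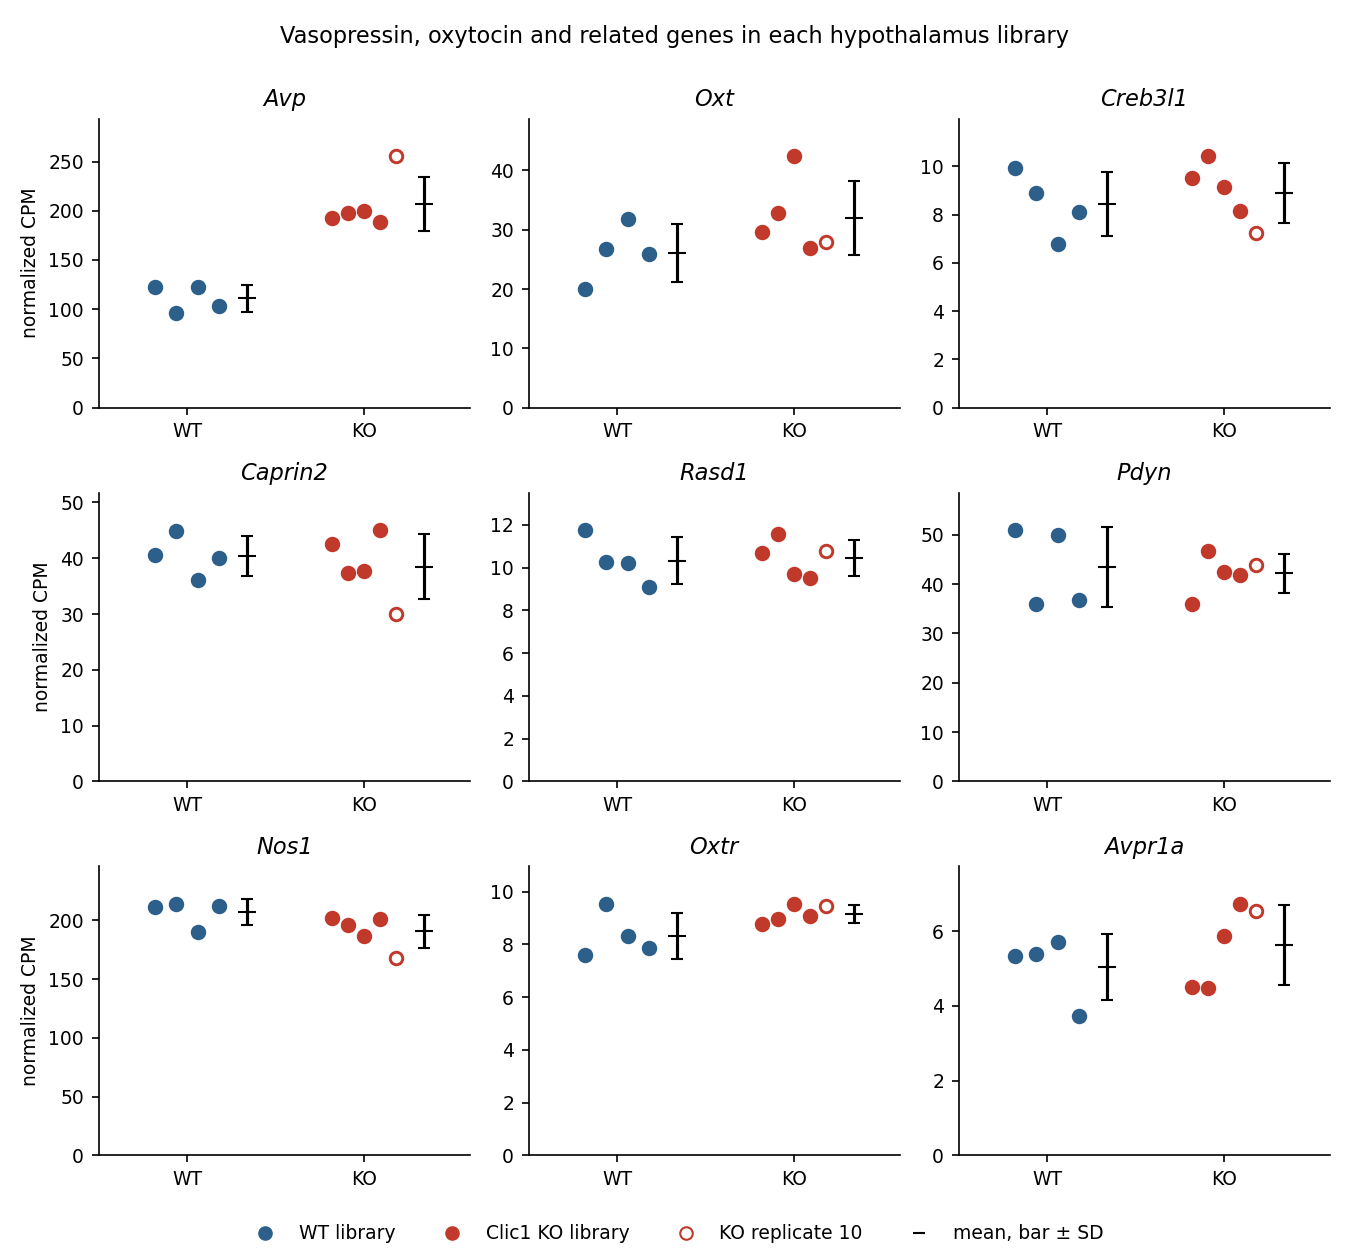
Normalized CPM (y axis, linear and starting at 0) of the 9 genes in each library, WT on the left and KO on the right of each panel; bars beside the points give the mean ± SD, and the open circle is KO replicate 10. Avp is the panel in which all KO points (189 to 255 CPM) lie above all WT points (96.0 to 123 CPM), and in the other 8 panels the groups overlap.

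Oxt lies beside Avp on the same chromosome and is read in the opposite direction. It occupies chr2:130576173-130577054 on the plus strand (ENSMUSG00000027301), and 3565 bases separate the ends of the genes, which face each other. Oxt CPM was 29.7, 32.9, 42.4, 27.0 and 27.9 in the KO mice, and 19.9, 26.7, 31.8 and 25.8 in the WT mice. All KO values were above 3 of the 4 WT values, but WT replicate 9 exceeded 3 KO libraries, so the groups overlapped. The mean was 32.0 ± 6.25 CPM among KO mice (SD, n = 5) and 26.1 ± 4.87 CPM among WT mice (SD, n = 4). The log2 difference of 0.29 (SE 0.15, 95% interval -0.04 to 0.63) did not pass the test, with an adjusted p of 0.794 (limma, Benjamini-Hochberg over all genes). Leaving out replicate 10 gave 0.34 with an adjusted p of 0.410 and an unadjusted p of 0.0331, and over all alternatives the difference ranged from 0.17 to 0.41. The interval thus ran from just under 0 to a value slightly below the lower bound for Avp. This is a description and no test of whether Oxt moved less, since Avp was chosen for its difference.

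The proportion of Avp to Oxt varied between mice. The ratio of Avp to Oxt CPM, in which library scaling cancels, was 6.50, 6.00, 4.71, 7.0 and 9.15 in the KO mice, and 6.14, 3.59, 3.86 and 3.98 in the WT mice. Most KO mice had more Avp per Oxt than most WT mice, but the ratio of WT replicate 1, with the lowest Oxt, was above those of KO replicates 4 and 6, so the groups overlapped. The other 3 WT mice lay below all KO mice. The log2 ratio averaged 2.70 ± 0.35 among KO mice (SD, n = 5) and 2.10 ± 0.35 among WT mice (SD, n = 4), a difference of 0.60, or 0.48 without replicate 10 and 0.26 with it as WT. No test is given for the ratio, since it contains the contrast that chose Avp. Avp made up 82.5% to 90.1% of the summed CPM of both hormones in KO and 78.2% to 85.99% in WT libraries.

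**Figure D2:**
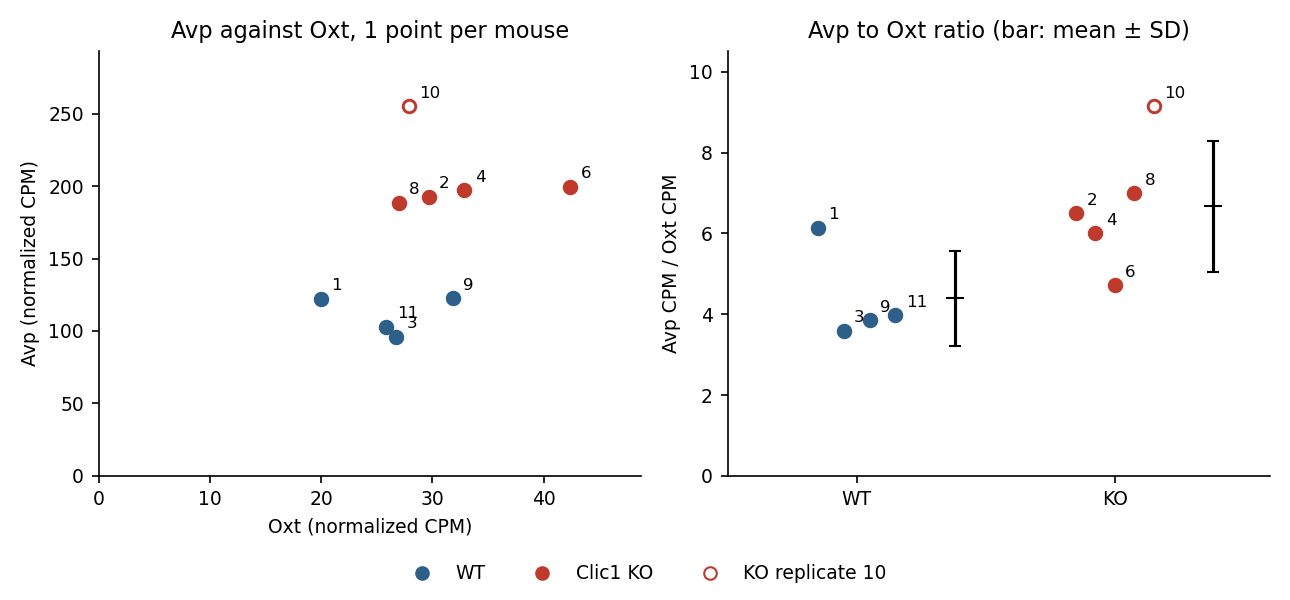
Left, Avp against Oxt in normalized CPM, 1 point per mouse with its replicate number; right, the ratio of Avp to Oxt CPM by group with the mean ± SD. KO points are displaced upward in Avp (189 to 255 against 96.0 to 123 CPM) over a largely shared range of Oxt, and in the ratio WT replicate 1 (6.14) lies above KO replicates 4 and 6 (6.00 and 4.71).

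The similarity of the hormone genes bears on how their reads could be assigned. The longest coding transcripts of Avp (577 bases) and Oxt (537 bases) aligned at 88.04% identity over 301 bases with 33 mismatches. Their longest identical run is 127 bases, in coding sequence that spans exons 1 and 2 of both genes, where the precursors encode neurophysin. A read from inside this run has no base that tells the genes apart, and the authors' quantification divides such reads by estimate. It is shown here from the GENCODE transcripts because it is the part of the hormone RNAs whose reads are ambiguous. In Avp it covers bases 144 to 270 of the transcript (chr2:130581133-130582411, minus strand, intron included) and in Oxt bases 156 to 282 (chr2:130576328-130576715, plus strand, intron included).
Avp and Oxt shared run: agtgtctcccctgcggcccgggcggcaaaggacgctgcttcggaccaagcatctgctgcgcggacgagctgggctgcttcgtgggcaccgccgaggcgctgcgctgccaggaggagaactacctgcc
The sum of both genes does not depend on that division. It was 239 ± 26.7 CPM among KO mice (SD, n = 5) and 137 ± 14.2 CPM among WT mice (SD, n = 4), with KO libraries at 216 to 283 and WT libraries at 123 to 155 CPM. The log2 difference of the sum was 0.80, or 0.73 without replicate 10.

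Per kilobase of the longest coding transcript, the order of the 9 genes was the same in most steps in every mouse. In WT mice Avp stood at 192 ± 23.6 CPM per kb (SD, n = 4) and Oxt at 48.6 ± 9.07, followed by Nos1 at 20.4 ± 1.08 and Pdyn at 18.2 ± 3.42. Caprin2 followed at 10.9 ± 0.982 and Rasd1 at 6.41 ± 0.679 CPM per kb. Creb3l1 at 3.24 ± 0.510, Avpr1a at 1.89 ± 0.334 and Oxtr at 1.77 ± 0.183 CPM per kb closed the order. Neighbours in this order were separated in all 9 libraries, apart from Nos1 and Pdyn, and Avpr1a and Oxtr, each of which kept the order in 5 of 9 libraries. Those neighbours did not differ beyond their spread. In KO mice Avp stood at 358 ± 47.5 and Oxt at 59.5 ± 11.6 CPM per kb (SD, n = 5).

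None of the other 8 genes passed the test. The count was 0 of 8 at an adjusted p under 0.05 and 0 of 8 at an unadjusted p under 0.05 in limma, and both counts were also 0 with limma-voom and with replicate 10 as WT. Without replicate 10 they were 0 and 1, the 1 being Oxt. Among all genes 10.5% had an unadjusted p under 0.05 without replicate 10. With all libraries, 0.286% of the 14351 genes (41 genes, 20 higher and 21 lower in KO mice) passed the adjusted threshold and 6.5% the unadjusted one, the latter being 6.65% with replicate 10 as WT. The number of genes past the adjusted threshold was 5 with replicate 10 as WT, and ranged from 18 without WT replicate 1 to 87 without KO replicate 10. Log2 differences of the 8 genes ran from -0.12 (Nos1) to 0.29 (Oxt), with 5 above and 3 below 0, and adjusted p from 0.794 to 0.984. A p above the threshold does not show that the levels were the same, so the interval of each difference is given below.

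**Figure D3:**
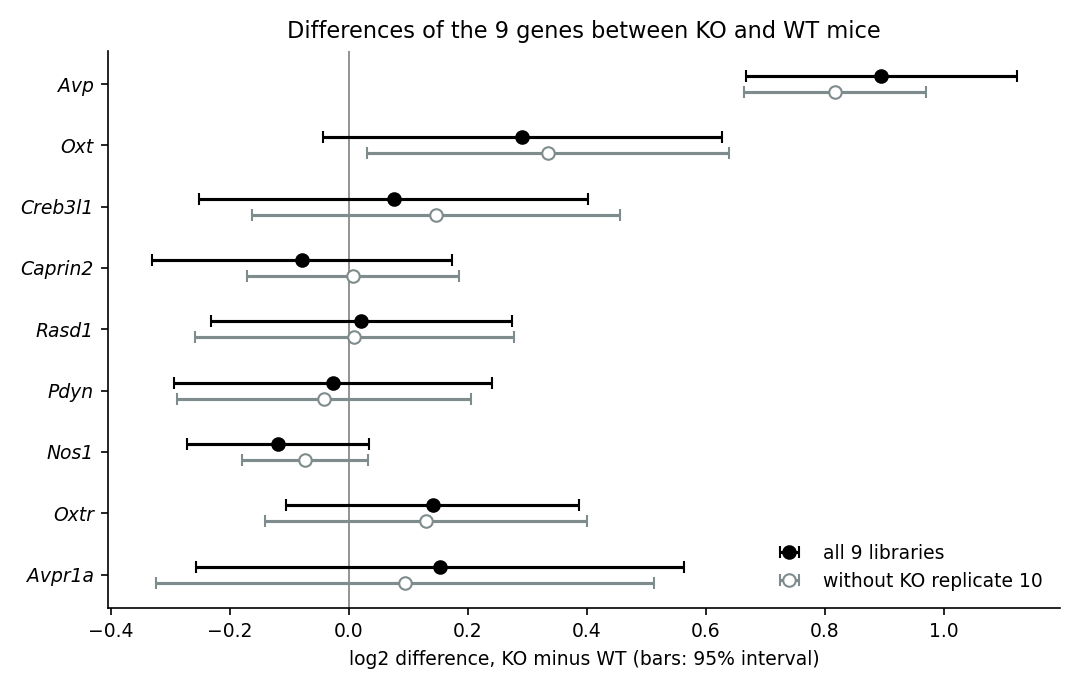
Log2 difference of KO minus WT (x axis) for the 9 genes with its 95% interval from limma, over all 9 libraries (black) and without KO replicate 10 (grey). The interval of Avp, the gene chosen for its difference, runs from 0.67 to 1.12, and the intervals over all libraries of the other 8 genes include 0.

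Among the regulators, Creb3l1 encodes a membrane-anchored transcription factor of the CREB3 family that is known to drive Avp transcription. Creb3l1 (ENSMUSG00000027230, chr2:91982328-92024502, minus strand) had 9.53, 10.4, 9.16, 8.13 and 7.22 CPM in the KO mice, and 9.95, 8.91, 6.80 and 8.13 CPM in the WT mice. The ranges nearly coincided, and KO replicate 10, the library with the most Avp, had the least Creb3l1 of the KO group. The log2 difference was 0.08 (SE 0.15, 95% interval -0.25 to 0.40, adjusted p = 0.943 in limma). The upper bound of its interval was below the difference of Avp, which is likewise a description, since Avp was chosen for its difference. Without replicate 10 the difference of Creb3l1 was 0.15 with an adjusted p of 0.793 (limma), and without WT replicate 9 it changed sign.

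Caprin2 encodes an RNA-binding protein that binds Avp mRNA and affects the length of its poly(A) tail. Caprin2 (ENSMUSG00000030309, chr6:148842492-148896237, minus strand) had 42.5, 37.3, 37.7, 45.0 and 30.0 CPM in the KO mice. The WT mice had 40.6, 45.0, 36.1 and 40.1 CPM. The groups overlapped throughout, with replicate 10 the lowest of all libraries. The log2 difference of -0.08 (SE 0.12, 95% interval -0.33 to 0.17, adjusted p = 0.917 in limma) moved to 0.0069 (adjusted p = 0.987) without replicate 10, so its sign rested on that library.

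Rasd1 encodes a small G protein that is induced by glucocorticoids and restrains cAMP-driven expression of Avp. Rasd1 (ENSMUSG00000049892, chr11:59963181-59964944, minus strand) differed least of the 9 genes in either direction. Its CPM was 10.7, 11.6, 9.71, 9.54 and 10.8 in the KO mice against 11.8, 10.3, 10.2 and 9.09 in the WT mice. The highest and the lowest of the 9 libraries were both WT. The log2 difference was 0.02 (SE 0.12, 95% interval -0.23 to 0.27, adjusted p = 0.984 in limma), and it was 0.0094 without replicate 10 and changed sign without KO replicate 4 or WT replicate 11.

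Of the genes expressed with Avp, Pdyn encodes prodynorphin, the precursor of opioid peptides that vasopressin neurons store in the same granules. Pdyn (ENSMUSG00000027400, chr2:129686565-129699844, minus strand) had 36.1, 46.8, 42.5, 41.8 and 43.9 CPM in the KO mice. Its values in the WT mice were 50.9, 36.0, 50.0 and 36.8 CPM, a wider spread (18.8% of the mean against 9.33% in KO) that enclosed all KO libraries. The log2 difference was -0.03 (SE 0.12, 95% interval -0.29 to 0.24, adjusted p = 0.978 in limma), or -0.04 without replicate 10, and it changed sign when KO replicate 2, WT replicate 1 or WT replicate 9 was left out. The WT mice with the most Pdyn, replicates 1 and 9, were also those with the most Avp among WT mice, which is an observation on 4 mice.

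Nos1 encodes the neuronal nitric oxide synthase, which magnocellular neurons express along with many other hypothalamic neurons. Nos1 (ENSMUSG00000029361, chr5:117781032-117958840, plus strand) stood at 202, 196, 186, 201 and 168 CPM in the KO mice, and at 211, 214, 190.4 and 212 CPM in the WT mice. All WT libraries but replicate 9 lay above all KO libraries. The log2 difference was -0.12 (SE 0.07, 95% interval -0.27 to 0.03, adjusted p = 0.828 in limma), and -0.07 (adjusted p = 0.660) without replicate 10, which had the lowest Nos1. Its interval was the narrowest of the 9 genes.

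Per kilobase the receptors stood lowest of the 9 genes. Oxtr encodes the oxytocin receptor, which signals through Gq to phospholipase C. Oxtr (ENSMUSG00000049112, chr6:112473683-112489943, minus strand) had 8.76, 8.96, 9.52, 9.07 and 9.45 CPM in the KO mice, and 7.60, 9.53, 8.30 and 7.85 CPM in the WT mice. The KO libraries lay above 3 WT libraries and below WT replicate 3. The log2 difference was 0.14 (SE 0.11, 95% interval -0.11 to 0.39, adjusted p = 0.862 in limma), and 0.13 (adjusted p = 0.791) without replicate 10.

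Avpr1a encodes the V1a receptor, the main brain receptor of vasopressin and likewise coupled to Gq. Avpr1a (ENSMUSG00000020123, chr10:122448499-122453452, plus strand) had 4.51, 4.48, 5.86, 6.72 and 6.53 CPM in the KO mice. It had 5.34, 5.39, 5.70 and 3.72 CPM in the WT mice. The KO libraries fell on both sides of the WT libraries, and the log2 difference of 0.15 (SE 0.19, 95% interval -0.26 to 0.56, adjusted p = 0.90 in limma) was the least precise of the 9. It was 0.09 (adjusted p = 0.919) without replicate 10. These levels rest on an estimated 27.0 to 132 reads per library. Counting error at the lowest of these is 19.3%, as large as the spread between mice of 19.2% in KO and 17.7% in WT libraries, so a small change of Avpr1a was not detectable at this depth. The receptor genes Avpr1b and Avpr2 were not analysed here.

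The upstream sequences of Avp and Oxt are shown as context for the clock, cAMP and AP-1 genes of the lists below. No motif was searched as a site of Creb3l1, so the matches do not show whether the windows hold one. RefSeq start sites on GRCm38.p6 were matched for 7 of the 9 genes, all but Creb3l1 and Rasd1, and the 250 bases before each start were read 5′ to 3′ on the gene's strand. The motifs searched on both strands were the E-box CACGTG, to which the clock factors Clock and Bmal1 bind, the cAMP response element TGACGTCA, its core TGACG, the AP-1 site TGANTCA, to which Fos and Jun bind, and the nuclear receptor site AGGTCA. The core lies within the full cAMP response element, so their matches overlap. Capitals mark matches. The Avp window is chr2:130582589-130582838 on the minus strand and the Oxt window chr2:130575919-130576168 on the plus strand.
Avp upstream: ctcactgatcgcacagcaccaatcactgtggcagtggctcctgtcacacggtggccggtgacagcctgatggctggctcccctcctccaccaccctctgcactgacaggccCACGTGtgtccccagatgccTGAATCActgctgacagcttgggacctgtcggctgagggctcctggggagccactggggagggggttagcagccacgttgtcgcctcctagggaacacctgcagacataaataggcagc
Oxt upstream: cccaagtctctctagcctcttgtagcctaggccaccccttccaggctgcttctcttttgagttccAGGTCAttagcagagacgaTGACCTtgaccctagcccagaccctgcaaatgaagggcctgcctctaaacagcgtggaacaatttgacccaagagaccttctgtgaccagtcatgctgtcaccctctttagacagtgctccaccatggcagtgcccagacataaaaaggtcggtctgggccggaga
The Avp window holds 1 E-box at position -139, where -1 is the base before the start site and the first base of a match is given, and 1 AP-1 site at -119. Of 32851 RefSeq promoter windows of the same length, 6.02% hold the E-box and 6.75% the AP-1 site. The Oxt window holds neither, and has 2 AGGTCA sites, at -185 and, on the other strand, at -166, where 14.0% of windows hold at least 1. Among the other genes with a window, Oxtr holds an E-box at -43 and AGGTCA at -98. Nos1 holds TGACG at -130 and Avpr1a at -165, where 17.8% of windows have it. The Nos1 window (chr5:117866589-117866838, plus strand) precedes a RefSeq start that lies inside the gene as placed above. It is therefore not the sequence before the first base of that gene, and its use as a promoter was not tested. The windows of Caprin2 and of both start sites of Pdyn matched none of the motifs, and none of the 7 genes had the full TGACGTCA, which 1.55% of windows hold. These matches describe letters in the window and are not sites of binding.

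In the neighbourhood of Avp, no other gene passed the test. Of the 20 other measured genes that start within 0.5 Mb of it, Oxt included, 0 had an adjusted p under 0.05 in limma or limma-voom and 1 (Gfra4 in limma) had an unadjusted p under 0.05 in each, where 6.5% of all genes did in limma. Without replicate 10 that number was 5 (Gfra4, Idh3b, Ptpra, Oxt and Itpa, beside 10.5% of all genes) and with replicate 10 as WT it was 3 (Gfra4, Idh3b and Itpa, beside 6.65%), named after their values were seen, and none of them passed the adjusted threshold. The log2 differences of the 20 ran from -0.31 (Ubox5) to 0.37 (Cpxm1) with a median of 0.0082, beside 0.00089 over all genes, and without replicate 10 the median was 0.05, beside -0.0020. Ubox5 differed by -0.16 without replicate 10. In 2 of the 20 the groups did not overlap, Vps16 with KO higher and Gfra4 with WT higher, both named after their values were seen, beside 3.41% of all genes. Without replicate 10 it was 3 of the 20 (Vps16, Ptpra and Gfra4), beside 6.06%. The smallest adjusted p was 0.636, or 0.236 without replicate 10.

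**Figure D4:**
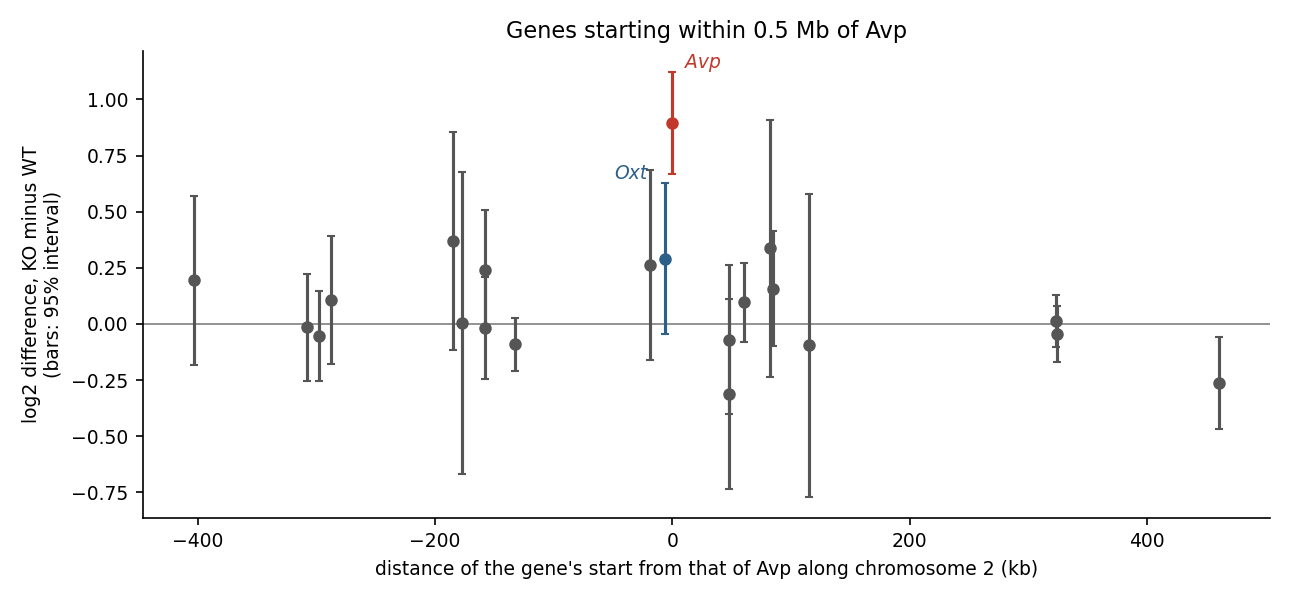
Log2 difference of KO minus WT with its 95% interval (y axis) for genes that start within 0.5 Mb of Avp, against the distance of their start from that of Avp in kb (x axis). Avp, at 0.90, is the highest point, Oxt at 0.29 lies 6.38 kb away, and the other genes lie between -0.31 and 0.37.

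Beyond the 9 genes, 8 lists of genes from the vasopressin and oxytocin pathway were examined, with 76 of 80 genes measured. In limma 0 of the 76 passed the adjusted threshold and 8 (10.5%) the unadjusted one, against the 6.5% of all genes. Limma-voom gave 0 and 9, and limma without replicate 10 gave 0 and 14 (18.4%, against 10.5% of all genes). The median log2 difference of the 76 was -0.0096, beside 0.00089 over all genes, and 4 of them (Scg2, Atf4, Prkca and Clock, 5.26%) had KO and WT libraries that did not overlap, beside 3.41% of all genes. Without replicate 10 these were 7 (9.21%), beside 6.06%.

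**Figure D5:**
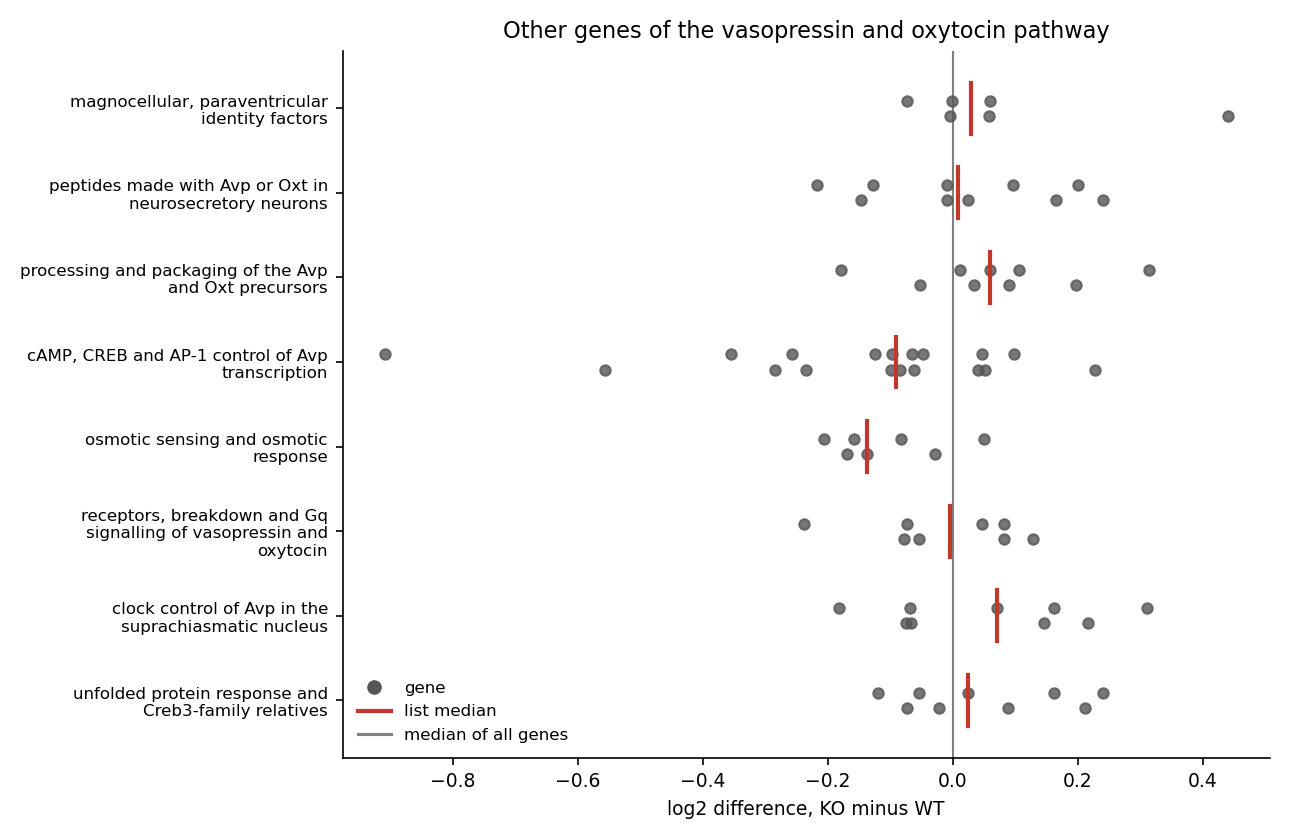
Log2 difference of KO minus WT (x axis) for each measured gene of the 8 pathway lists, 1 point per gene, with the median of each list (red) and of all genes (grey). List medians lie between -0.14 and 0.07, and Fos at -0.91 and Egr1 at -0.56 are the points farthest below 0.

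Transcription factors that specify magnocellular and paraventricular neurons, such as Sim1 and Otp, had a median difference of 0.03 over 6 genes, with 0 of 6 past either threshold. Without replicate 10 the median was 0.11, and 1 of 6, Otp, had an unadjusted p under 0.05 (0.0169, adjusted p = 0.330 in limma). Sim2, a partner-dependent factor needed in part of the paraventricular nucleus, had 2.19, 2.77, 3.11, 2.81 and 2.03 CPM in the KO mice against 1.90, 2.28, 1.80 and 1.52 in the WT mice. That is a log2 difference of 0.44 (SE 0.22, adjusted p = 0.786 in limma). Sim1, the master factor of this lineage, differed by -0.07 (SE 0.12), or 0.0029 without replicate 10, and its partner Arnt2 by 0.06 (SE 0.06). The summed level of the list was 398 to 493 CPM with KO and 418 to 462 CPM with WT genotype. The groups overlapped in the sum and in each of the 6 genes, but for the sum and for Otp this rested on replicate 10. Without it the sum was 463 to 493 CPM with KO. Otp, named after its values were seen, was at 33.6 CPM in replicate 10, 61.7 to 67.6 CPM in the remaining KO libraries and 50.0 to 61.4 CPM with WT genotype.

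Peptides and secretory proteins made alongside Avp or Oxt had a median of 0.0078, with 0 of 10 past the adjusted threshold and 1 of 10 at an unadjusted p under 0.05. That gene, Scg2 (secretogranin II, a granule protein), had 781, 861, 814, 824 and 1057 CPM in the KO mice and 746, 679, 780.4 and 718 CPM in the WT mice. KO replicate 2 and WT replicate 9 almost met, and the groups did not overlap. Its log2 difference was 0.24 (SE 0.09, adjusted p = 0.648 in limma). Cartpt and Cck, a feeding peptide and cholecystokinin, differed by 0.20 (SE 0.17) and -0.22 (SE 0.19), or by 0.09 and -0.36 without replicate 10. Cck then had an unadjusted p of 0.0317 (adjusted p = 0.403 in limma), so that 2 of 10 were under 0.05.

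Enzymes and granins that cut and pack the precursors had a median of 0.06, or -0.0073 without replicate 10, with 0 of 9 past either threshold. The largest difference by p was that of Pcsk1n (proSAAS, an inhibitor of the convertase Pcsk1), at 0.31 (SE 0.17, adjusted p = 0.803 in limma). Replicate 10 had 1482 CPM of Pcsk1n against 724 to 905 in the remaining KO libraries, and without it the difference was 0.14. Chga and Chgb, the chromogranins of dense-core granules, differed by -0.18 (SE 0.12) and 0.20 (SE 0.14). Without replicate 10 they differed by -0.27 and 0.06, and Chga alone of the 9 then had an unadjusted p under 0.05 (0.0033, adjusted p = 0.182 in limma).

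Genes of cAMP, CREB and AP-1 control included the lowest differences of the pathway. Their median was -0.09, or -0.04 without replicate 10, with 0 of 18 past the adjusted threshold, 4 of 18 at an unadjusted p under 0.05 (Fos, Egr1, Atf4 and, named after its values were seen, the AP-1 subunit Junb at -0.35), and 13 of 18 below 0. Fos, an immediate early gene and AP-1 subunit, had 9.14, 16.7, 3.66, 9.70 and 9.10 CPM in the KO mice, and 17.7, 16.2, 16.9 and 15.0 CPM in the WT mice. All KO libraries but replicate 4 were below all WT libraries, and the log2 difference was -0.91 (SE 0.32, adjusted p = 0.622 in limma). Egr1, another immediate early gene, had 39.0, 55.4, 29.9, 43.0 and 26.7 CPM in the KO replicates in the same order against 53.8, 54.8, 54.1 and 58.1 in the WT replicates, a difference of -0.56 (SE 0.17, adjusted p = 0.506). Here too KO replicate 4 alone reached the WT range. Atf4, a CREB-related factor of the integrated stress response, stood at 53.2 to 61.4 CPM with KO and 44.4 to 49.8 CPM with WT genotype without overlap. Its log2 difference was 0.23 (SE 0.07, adjusted p = 0.506 in limma).

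Genes of osmotic sensing and osmotic response, the physiological drive for vasopressin release, had a median of -0.14, or -0.06 without replicate 10, with 0 of 7 past either threshold. Kcnma1 (the BK potassium channel), Aqp4 (the glial water channel) and Scn7a (a sodium-sensing channel) differed by -0.17 (SE 0.10), -0.14 (SE 0.10) and -0.21 (SE 0.18), with adjusted p of 0.822, 0.857 and 0.869 (limma). Without replicate 10 Kcnma1 and Aqp4 differed by -0.08 and -0.06. In replicate 10 Kcnma1 was at 224 CPM, against 298 to 310.0 CPM in the remaining KO libraries.

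Genes of receptor signalling and peptide breakdown had a median of -0.0038 over 8 genes, or 0.0093 without replicate 10, with 0 past the adjusted threshold and 1 of 8 at an unadjusted p under 0.05. Prkca, the protein kinase C that acts downstream of Gq, was at 88.4 to 117.2 CPM with KO and 117.3 to 128 CPM with WT genotype. The difference of -0.24 (SE 0.08) had an adjusted p of 0.604 (limma). Plcb4, a phospholipase C, and Rgs2, which restrains Gq, differed by 0.08 (SE 0.06) and 0.13 (SE 0.12), or by 0.05 and 0.02 without replicate 10.

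Clock genes, through which the suprachiasmatic nucleus times its Avp, had a median of 0.07, with 0 of 9 past the adjusted threshold and 2 of 9 at an unadjusted p under 0.05. Dbp, a clock output factor, was at 68.0 to 105 CPM with KO and 58.0 to 72.8 CPM with WT genotype (0.31, SE 0.12, adjusted p = 0.695 in limma). Clock itself was at 151 to 193 CPM with KO and 196 to 210 CPM with WT genotype, without overlap (-0.18, SE 0.08, adjusted p = 0.720). Per2, a repressor of the cycle, differed by 0.22 (SE 0.10, adjusted p = 0.767), and by 0.26 (adjusted p = 0.278) without replicate 10, which made 3 of 9 under the unadjusted threshold. The hour at which tissue was taken is not given in the sources used here.

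The unfolded protein response, to which Creb3l1 relatives belong, had a median of 0.02, or 0.0094 without replicate 10, with 0 of 9 past either threshold. Sel1l, an adaptor of protein degradation in the endoplasmic reticulum that vasopressin neurons need, differed by -0.12 (SE 0.06, adjusted p = 0.786 in limma). Without replicate 10, 2 of 9 had an unadjusted p under 0.05, Sel1l at -0.15 (0.0057, adjusted p = 0.230) and, named after its values were seen, Creb3l2 at 0.18 (0.0248, adjusted p = 0.370). Ddit3 (CHOP) differed by 0.24 (SE 0.16) and Hspa5 (BiP) by 0.21 (SE 0.14), and in replicate 10 Hspa5 was at 454 CPM against 252 to 303 CPM in the remaining KO libraries. Without replicate 10 Ddit3 differed by 0.14 and Hspa5 by 0.07.

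Because the suprachiasmatic nucleus is another source of Avp, its markers were set beside the result. Of 6 measured, 3 were above 0 and 3 below, and 0 passed the adjusted threshold. An unadjusted p under 0.05 was seen in 2 (Lhx1 and Rgs16, named after their values were seen). The median log2 difference of the 6 was 0.14. Vip differed by 0.44 (SE 0.23), Rgs16 by 0.38 (SE 0.16) and Lhx1 by 0.35 (SE 0.11). Six6 differed by -0.12 (SE 0.16), Prok2 by -0.11 (SE 0.30) and Grp by -0.07 (SE 0.25). Without replicate 10 Vip differed by 0.28, Six6 by -0.04, Prok2 by -0.07 and Grp by -0.14. Lhx1 was at 17.4 to 22.4 CPM with KO and 14.3 to 18.5 CPM with WT genotype, and Rgs16 at 18.5 to 29.0 and 15.5 to 25.6 CPM. Vip, the peptide that defines the core of this nucleus, had 11.6, 12.1, 13.0, 8.44 and 19.7 CPM in the KO mice and 12.8, 8.08, 9.40 and 7.30 CPM in the WT mice. The summed level of the list was 58.0 to 85.5 CPM with KO (median 79.4) and 58.0 to 77.7 CPM with WT genotype (median 60.6). It was at most 82.8 CPM with KO when replicate 10 was left out. Among KO libraries replicate 8, with the least Avp, had the least of 5 of the 6 markers and replicate 10 the least of the other, Six6. Replicate 10, with the most Avp, had the most Vip and Lhx1 but the least Six6 and the next to least Prok2. The part of this nucleus in the Avp result was not tested.

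Markers of the pituitary, which adjoins the dissected tissue, were set beside the result too. Of 5 pituitary markers measured, 4 were below 0, with a median of -0.84, 0 past the adjusted threshold and 2 at an unadjusted p under 0.05 (Tshb and Pitx1, named after their values were seen). Tshb, a subunit of thyrotropin, was at 3.35 to 7.12 CPM with KO and 7.98 to 16.1 CPM with WT genotype without overlap (-1.14, SE 0.26, adjusted p = 0.192 in limma). Cga, its partner subunit, ranged from 0.366 to 8.44 CPM in KO and from 2.07 to 10.1 CPM in WT libraries. The summed level of the list was 35.9 to 55.4 CPM with KO and 47.5 to 67.2 CPM with WT genotype. The part of the amount of pituitary tissue in the Avp and Oxt levels was not tested.

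Profiles most like that of Avp over the 9 libraries were those of Dhrs7, Ifih1, Rps24, Hspa1a and Cd59a, among genes averaging 5 CPM or more. Likeness was the root-mean-square difference between profiles of log2(CPM + 0.1) minus the WT mean, which was 0.22 for Dhrs7 and 0.26 for Cd59a. Dhrs7 encodes a short-chain dehydrogenase, and had 14.3 to 23.4 CPM with KO and 9.23 to 13.2 CPM with WT genotype. Cd59a, a brake on complement, had 18.1 to 23.1 CPM with KO and 7.58 to 15.0 CPM with WT genotype, and Ifih1, a sensor of viral RNA, 7.14 to 10.6 and 3.58 to 7.30 CPM. Rps24 (a ribosomal protein) and Hspa1a (a heat shock protein, with the near-identical copy Hspa1b) had 157 to 369 and 9.68 to 17.5 CPM in KO against 93.7 to 126 and 4.58 to 6.21 CPM in WT libraries. They were selected on the same contrast as Avp, so no test is given. Hspa1a (chr17:34969190-34972156) lies close to the deleted gene Clic1 (chr17:35049966-35058749). The part of this closeness in the difference of Hspa1a was not tested.

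The profiles most like that of Oxt were those of Plekhh3, Mvd, Mrps18a, Lmo1 and Tspan4, at 0.12 for Plekhh3 to 0.17 for Tspan4 on the same measure. In each of the 5, as in Oxt, KO replicate 6 had the highest value of all libraries. Mvd, an enzyme of cholesterol synthesis, had 15.8 CPM there and 7.60 to 10.6 CPM in the other libraries. None of the 9 genes studied here was among the 5 nearest to Avp or to Oxt.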

How the data were processed

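Hypothalamic RNA was sequenced from Clic1 KO and WT mice. The authors trimmed reads with Trimmomatic 0.38, aligned them to GRCm38.p6 with STAR 2.5.1a and estimated reads per gene with RSEM 1.3.0 on Ensembl release 98. Genes that did not reach 1 CPM in at least 5 samples were removed and TMM scaling was applied. The signal deposited is the authors' normalized CPM. Because RSEM estimates are fractional, 81.3% to 86.6% of values up to 2.5 CPM fell within 0.03 of a whole read, so read numbers are estimates, and counting errors cover counting only. The authors' comparison table (fold changes and p-values) was used for symbols only. A further column of library values could not be tied to any sample, and this 1 column was left out.

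Values were transformed to log2(CPM + 0.1), which understates changes of low genes, and fitted in limma 3.58.1 (R 4.3.3, lmFit and eBayes with trend, condition only), adjusting p over 14351 genes by Benjamini-Hochberg, with 0.05 as threshold. The fit was tested on simulated data. It stands in for the study's limma-voom, which was run as an alternative on estimated reads. P-values set each difference against the spread between these libraries, moderated over all genes. Positions and transcripts came from GENCODE mouse release 21 on GRCm38 (14336 genes placed), and transcripts were aligned with blastn 2.17.0. Sequences upstream of genes came from RefSeq on GRCm38.p6.

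The 9 genes and the lists were chosen with earlier results of these data known. Other genes named were the 3 with the smallest p in each pathway list, list genes and genes near Avp past the threshold (none), the 5 profiles nearest to Avp and to Oxt, and Clic1. Alternatives were pseudocounts of 0.5 and 0.01, a mean of at least 5 CPM, equal sums, median-of-ratios scaling, no trend, sample weights, limma-voom, replicate 10 as WT, and each replicate left out. The sum of Avp and Oxt was added after the data were seen.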

Additional observations from a re-analysis of the deposited data

Results flagged for a closer look

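A library that stands apart from the rest of its group was looked for in each named gene and in the Avp to Oxt ratio, by Dixon's gap test at its 95% critical value. Of 90 groups tested, 11 stood out, where about 1 in 20, or 4.5 of 90, would be marked among independent groups. The groups here are not independent, since they share the same libraries. Rps24, Hspa1a and Mvd were also picked for profiles like those of Avp and Oxt. The counts are therefore not a test against chance. KO replicate 10, the library with conflicting labels, accounts for 8 of the 11.

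Among the 9 genes, Avp in KO replicate 10 was 255 CPM against 189 to 199.8 CPM in the remaining KO libraries, and Nos1 in WT replicate 9 was 190.4 CPM against 211 to 214 CPM in the other WT libraries. In KO replicate 10 the granule proteins Pcsk1n and Chgb were at 1482 and 198 CPM, against 724 to 905 and 118 to 127 CPM in the remaining KO libraries. Rgs2 was at 79.4 CPM (others 50.8 to 58.6), Hspa5 at 454 CPM (others 252 to 303), Rps24 at 369 CPM (others 157 to 179.9) and Hspa1a at 17.5 CPM (others 9.68 to 11.8) there. Kcnma1 alone of the 8 was low in that library, at 224 CPM against 298 to 310.0. Plcb4 in WT replicate 11 was 189 CPM against 180.2 to 181 CPM in the other WT libraries, and Mvd in KO replicate 6 was 15.8 CPM against 9.09 to 10.3 CPM in the remaining KO libraries. The cause of these gaps was not tested.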

How the results depend on the processing

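Every alternative left Avp higher in KO mice, with a log2 difference of 0.58 to 0.95, the lowest with replicate 10 as WT (0.58) and otherwise at least 0.80. Leaving out single replicates gave 0.82 to 0.95. The 8 other genes stayed above the adjusted threshold in all alternatives, as did the pathway list genes and the genes near Avp. Of the marker genes Tshb passed with sample weights, lower in KO mice (adjusted p = 0.0294 in limma). The number of genes past the threshold, 41, became 27 among genes averaging 5 CPM or more, 135 under sample weights and 5 with replicate 10 as WT, and 18 to 87 with single replicates left out (27 without KO replicate 6, 25 without KO replicate 8, 87 without KO replicate 10, 18, 19, 24 and 22 without WT replicates 1, 3, 9 and 11). The cause was not tested. Differences near 0 changed sign. Sample weights gave -0.015 for Rasd1. Replicate 10 as WT gave 0.092 for Caprin2, -0.0042 for Rasd1, 0.078 for Sim1, -0.034 for Cartpt, -0.064 for Pcsk1n, -0.085 for Chgb, 0.027 for Kcnma1, 0.034 for Aqp4, -0.090 for Rgs2 and -0.094 for Hspa5. With single replicates left out, Pdyn ranged from -0.11 to 0.056, Rasd1 from -0.038 to 0.085, Creb3l1 from -0.023 to 0.16, Caprin2 from -0.14 to 0.0069 and Sim1 from -0.16 to 0.0029. No paired analysis was run because the litter of each mouse was not available here, and KO and WT mice share no replicate number. Litter was therefore not modelled. Depth limits the receptors, Creb3l1 and Rasd1 most, whose lowest libraries rest on 27.0 to 52.9 estimated reads.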

Other observations

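Markers of other regions and cell types were compared between the same libraries, and 0 of the 52 measured genes of all 12 marker lists passed the adjusted threshold in limma or limma-voom, with 6 and 7 at an unadjusted p under 0.05 (6 of 52 being 11.5%, beside 6.5% of all genes). Without KO replicate 10 these were 0 and 9 in limma (17.3%, beside 10.5% of all genes). Peptides of the arcuate nucleus and lateral hypothalamus, which are partly regulated by feeding, had a median log2 difference of -0.01 over 7 genes, or -0.05 without that library. Among them Pmch, the melanin-concentrating hormone, was at 206 to 334 CPM with KO and 199 to 246 CPM with WT genotype, and Npy at 17.4 to 24.6 and 19.4 to 32.5 CPM. Microglial markers were all below 0, with a median of -0.20 over 5 genes, or -0.10 without KO replicate 10, and 0 of 5 had an unadjusted p under 0.05. Oligodendrocyte markers had a median of -0.12 over 5 genes, with a summed level of 3206 to 3723 CPM with KO and 3507 to 4315 CPM with WT genotype, where 1 gene (Mbp) had an unadjusted p under 0.05, joined by Mog without KO replicate 10. Medians were -0.03 over 5 astrocyte and pituicyte genes, 0.10 over 5 ependymal genes, 0.05 over 5 striatal genes, 0.02 over 5 thalamic genes and 0.19 over 2 choroid plexus genes. Without KO replicate 10 the astrocyte and pituicyte median was -0.06, the ependymal -0.0040 and the thalamic 0.08, and 1 astrocyte gene (Slc1a3) and 1 striatal gene (Ppp1r1b) had an unadjusted p under 0.05. The only blood marker measured, Alas2, differed by 0.37 (adjusted p = 0.648 in limma), and the only adipose marker, Lpl, by -0.16.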
